A study of Mus musculus with 24 samples.

Results

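Resting CD4 T cells whose Acly gene was to be deleted were compared with resting wild-type cells, across 28741 of the 46981 genes in the deposited table. Genes entered when they had at least 1 RPM in at least 3 of the 6 libraries, where RPM is the level of a gene when the library's total is set to 1000000. The knockout (KO) libraries are labelled CD4-Cre Aclyfl/fl, and the Cre recombinase is driven by the Cd4 promoter, which is active from a thymocyte stage shared by the CD4 and CD8 lineages. Each genotype, KO and wild type (WT), has 3 libraries, and these 6 are part of a series of 24. All 6 come from mouse CD4 T cells that were given no stimulus. The labels name RPMI medium with 15% serum and 2 mM glutamine, and give neither age nor strain. They do not say whether the WT mice carried Cre or the floxed alleles, nor is it stated that replicates come from different animals, so the spread behind each p-value may be partly technical.

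ATP citrate lyase, the product of Acly, splits citrate that mitochondria have exported and so makes acetyl-CoA in the cytosol and nucleus. This acetyl-CoA is the building block of cholesterol and fatty acids and the acetyl donor for histone acetyltransferases, while acetyl-CoA synthetase (Acss2) makes it from acetate instead. Resting T cells grow and divide little and run on low rates of lipid synthesis, and stimulation through the antigen receptor raises both. The comparison asks which transcripts differ between the genotypes before any stimulus.

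At rest almost no gene was called different between the genotypes, which at this depth does not show that the others were unchanged. A single gene, the processed pseudogene Gm5277, passed an adjusted p of 0.05, which is 0.00348% of the genes tested, and it was higher in KO cells. No gene was called lower, and no member of any of 24 gene lists was called. The widest pattern among named groups was in ribosomal protein genes and the transcripts of the mitochondrial genome, where every list sum in KO libraries lay below WT 1 and WT 2 but above WT 3.

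The sequences below are 300 bases around the transcription start of Acly, the targeted gene, and of 3 ribosomal protein genes that lay below WT 1 and WT 2 in every KO library. They are RefSeq sequences on GRCm38.p6, from 250 bases before the start to 50 after it, written 5′ to 3′ on the gene's strand. Capitals mark CTTTCC, a pyrimidine-rich string common at the start of ribosomal protein genes, CCGGAAG, the core bound by ETS factors, AAGATGGCG, the letters bound by YY1, and GGGCGG, the GC box bound by Sp1, each searched on both strands (a GC box on the other strand reads CCGCCC). Positions count from the first transcribed base. The Acly window, chr11:100527951-100528250 on the minus strand, held 4 GC boxes, at -117, -88, -76 and -27. The Rpl4 window, chr9:64173137-64173436 on the plus strand, held CTTTCC at -17. The Rps27 window, chr3:90213599-90213898 on the minus strand, held AAGATGGCG at -74 and CTTTCC at 2. The Rpl23 window, chr11:97782390-97782689 on the minus strand, held CTTTCC at -95 and a GC box at 11. CCGGAAG was in none of the 4 windows.
Acly: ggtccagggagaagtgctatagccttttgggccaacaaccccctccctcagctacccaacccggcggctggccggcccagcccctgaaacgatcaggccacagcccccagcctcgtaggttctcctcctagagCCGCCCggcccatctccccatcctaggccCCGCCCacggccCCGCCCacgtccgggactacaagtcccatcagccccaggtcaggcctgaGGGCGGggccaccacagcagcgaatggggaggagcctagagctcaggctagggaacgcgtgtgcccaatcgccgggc
Rpl4: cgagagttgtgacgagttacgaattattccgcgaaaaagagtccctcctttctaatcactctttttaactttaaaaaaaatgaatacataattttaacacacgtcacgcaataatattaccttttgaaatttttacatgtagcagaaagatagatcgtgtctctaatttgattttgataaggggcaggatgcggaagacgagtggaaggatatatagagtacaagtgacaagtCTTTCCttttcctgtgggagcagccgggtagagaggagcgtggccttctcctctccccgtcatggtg
Rps27: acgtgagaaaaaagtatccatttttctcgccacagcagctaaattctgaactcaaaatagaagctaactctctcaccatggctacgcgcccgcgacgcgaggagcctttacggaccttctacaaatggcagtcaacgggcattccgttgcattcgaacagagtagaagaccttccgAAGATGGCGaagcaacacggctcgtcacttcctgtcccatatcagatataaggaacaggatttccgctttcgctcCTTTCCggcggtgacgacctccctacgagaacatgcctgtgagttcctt
Rpl23: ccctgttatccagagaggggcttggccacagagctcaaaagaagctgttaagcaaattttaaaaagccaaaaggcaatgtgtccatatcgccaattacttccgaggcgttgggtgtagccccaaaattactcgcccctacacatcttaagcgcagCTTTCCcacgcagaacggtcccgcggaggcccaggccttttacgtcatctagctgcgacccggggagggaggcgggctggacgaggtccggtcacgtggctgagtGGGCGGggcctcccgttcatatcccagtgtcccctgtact

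The promoter table held 57 of the 77 ribosomal protein genes. Of these, 27 (47.4%) had CTTTCC on either strand, against 7109 of all 27025 promoters (26.3%). CCGGAAG was in 23 of the 57 (40.4%), against 2465 of all promoters (9.12%), and its first or last bases can overlap CTTTCC. AAGATGGCG was in 3 (5.26%), against 404 of all promoters (1.5%), and GGGCGG in 34 (59.6%), against 9704 (35.9%). Among 60 promoters of nuclear respiratory chain genes, 13 (21.7%) held CCGGAAG and 16 (26.7%) held CTTTCC. These matches describe the letters of the windows and say nothing of binding in these cells.

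The libraries were shallow, and this sets how finely single genes can be read. The recovered counts came to 668894, 662021 and 642029 in KO 1 to KO 3, against 664824, 517689 and 544738 in WT 1 to WT 3. RPM is scaled to totals after the collision correction described below. These were 875694, 940081 and 793643 in KO and 862496, 709708 and 671898 in WT. A single count was worth 1.14, 1.06 and 1.26 RPM in the KO libraries and 1.16, 1.41 and 1.49 RPM in the WT libraries. The upper limit that 0 counts leave, taken as 3 counts and called the floor here, was 3.43, 3.19 and 3.78 RPM in KO and 3.48, 4.23 and 4.47 RPM in WT, and covers counting error only. The filter of 1 RPM therefore sits at or under a single count, and 11325 of the genes kept (39.4%) averaged under 3 counts. The 3252 genes seen in exactly 3 libraries, just inside the rule, had a median of 0.837 RPM, and the 4173 seen in exactly 2, just outside it, had a median of 0.438 RPM.

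Defining markers of CD4 T cells were present in all 6 libraries. Cd4 stood at 72.5, 85.9 and 94.1 RPM in KO against 103, 105 and 49.3 RPM in WT, Lck at 89.9, 77.3 and 108 against 151, 134 and 62.8 RPM, and Cd3e at 47.1, 32 and 58.3 against 58.3, 56.6 and 31.3 RPM. The groups overlapped for all of these, with WT 3 the lowest library each time. The 17 B cell markers (16 kept) summed to 151 to 183 RPM in KO and 131 to 213 RPM in WT. Cd79b was at 1 count or none in every library, but Cd22 had 20.3 to 31.6 RPM in KO and 14.1 to 36.1 RPM in WT. The 14 CD8 T and NK cell markers (10 kept) summed to 50 to 66.9 RPM in KO and 59.6 to 74.3 RPM in WT. Klrb1c, Ncr1, Nkg7 and Gzma were at 3 counts or fewer in every library. Cd8b1 was not, with 9.58 to 20.2 RPM in KO and 12.8 to 26.8 RPM in WT. The 16 myeloid markers (12 kept) summed to 60.6 to 89.8 RPM in KO and 70.5 to 79.0 RPM in WT. Cd14 and S100a8 were at 0 throughout, but Itgam had 21.7 to 49.4 RPM in KO and 27.9 to 40.3 RPM in WT. The 13 stromal and endothelial markers (9 kept) summed to 127 to 189 RPM in KO and 122 to 176 RPM in WT. Exact two-sided permutation tests of these sums gave p = 0.4 (B), 0.4 (CD8 T and NK), 0.8 (myeloid) and 1.0 (stroma and endothelium), where 0.1 is the smallest p that 3 against 3 can give.

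Several whole-library measures varied as much within a genotype as between them. Receptor genes of smell and pheromone sensing, families with no known role in T cells, held 10.7 to 11% of RPM in KO and 9.58 to 10.7% in WT (exact two-sided permutation p = 0.2). The table held 1893 such genes, and 1344 of them were kept. A level above the floor, here and below, therefore need not mean that a gene is expressed. The 12 most abundant features, such as the predicted models Gm10800 and Gm10717, together took 19.7, 23.2 and 14.9% of RPM in KO and 17.7, 25.3 and 18.4% in WT. The highest recovered count was 4094, 4095 and 4072 in KO and 4087, 4095 and 4075 in WT, at or near the cap of 4095. These shares therefore rest on the collision correction described below. On log2 values of the 10596 genes with at least 10 RPM, KO libraries correlated with each other at 0.908 to 0.921, WT 3 with WT 1 and WT 2 at 0.855 and 0.835, and WT 1 with WT 2 at 0.903 (Pearson's r across genes, which are not independent replicates). Among the WT libraries WT 3 thus stood apart, but it correlated with the KO libraries at 0.896 to 0.910. WT 1 correlated with the KO libraries at 0.899 to 0.906 and WT 2 at 0.877 to 0.894. WT 3 is therefore not the only library that differs from the rest. The lists that WT 3 moves most are given with and without it. Xist, expressed from the inactive X chromosome of females, stood at 10.3, 42.8 and 55.7 RPM in KO and 9.28, 15.5 and 40.3 RPM in WT, and the Y-linked Ddx3y at 41.3, 3.19 and 17.7 RPM in KO and 57.2, 45.3 and 19.4 RPM in WT. Xist was low and Ddx3y high in KO 1, WT 1 and WT 2, and the reverse held in KO 2, KO 3 and WT 3. Activated libraries split alike in Ddx3y, at 78.0, 1.76 and 4.28 RPM in KO and 74.4, 93.6 and 5.28 RPM in WT. This sex-linked split is uneven between the genotypes, and its part in their differences was not tested beyond a fit with Xist as a covariate. That fit is given below for the results it moves.

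Acly itself was near the floor in every resting library. It had 8.0, 1.06 and 5.04 RPM in KO (7, 1 and 4 counts), against 5.8, 9.87 and 8.94 RPM in WT (5, 7 and 6 counts). The groups overlapped, since KO 1 lay above WT 1. The fitted difference, KO minus WT, was -1.02 ± 0.59 on the log2(RPM + 0.5) scale (standard error, as after every ± on a log2 change), with a 95% interval of -2.18 to 0.14 and an adjusted p of 0.996 by limma. That interval includes no change and a loss of more than 4-fold, so the deletion could not be checked from these 6 libraries alone. Without KO 2, the library with 1 count, the difference was -0.31, and without KO 1 it was -1.53. In activated cells of the same cohort Acly stood at 11.3, 10.6 and 15.0 RPM in KO against 104, 111 and 109 RPM in WT, with no overlap. The genotype difference at rest and that after activation were compared by an interaction term, the difference after activation minus that at rest, which was -2.08 ± 0.62 with an unadjusted p of 0.002 and an adjusted p of 1.00 by limma. The gene lies on chromosome 11 from 100476353 to 100528000 (GRCm38, minus strand, ENSMUSG00000020917). The table sums reads per gene and does not show which exons they came from.

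Gm5277, the 1 gene called, is a processed pseudogene on chromosome 3 (78891867 to 78892422, ENSMUSG00000091361). It had 6.86, 40.6 and 24.0 RPM in KO (6, 38 and 19 counts), against 3.48, 1.41 and 1.49 RPM in WT (3, 1 and 1 counts). The groups did not overlap, but KO 1 was only 3 counts above WT 1. The difference was 2.98 ± 0.56 on the log2 scale, with an adjusted p of 0.00249 by limma. The call held in 8 of 19 alternatives. It was lost with edgeR (3.38, adjusted p = 0.984) and DESeq2 (3.46, adjusted p = 1.00) on the recovered counts, with the replicate number as a block (2.98, adjusted p = 0.159 by limma) and with Xist as a covariate (2.73, adjusted p = 0.828 by limma). It was also lost with TMM-style scaling, quantile normalization, a filter of 5 RPM, a fit of 12 libraries, limma without trend and robust, and without KO 2 (2.44) or KO 3 (2.81). Reads of a processed pseudogene may come from near-identical copies, so its identity is uncertain.

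At an unadjusted p under 0.05, limma found 925 genes (3.22% of those tested), of which 468 were higher in KO (1.63%) and 457 lower (1.59%), while edgeR found 927 and DESeq2 112. The groups did not overlap in 2215 genes (7.71%), with every KO library above every WT library in 1044 (3.63%) and below in 1171 (4.07%). Random labels of 3 against 3 libraries would separate a gene fully at a rate of 0.1 where no values tie. A lack of overlap alone, here and below, thus marks no gene as changed. The changes split about evenly, with 15056 positive and 13685 negative and a median of 0.03 on the log2 scale. Among the 28741 genes tested, 189 were seen in every KO library and no WT library and 112 in every WT library and no KO library. These genes passed the filter through a single group, so their one-sidedness follows from the rule and is no result.

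**Figure D1:**
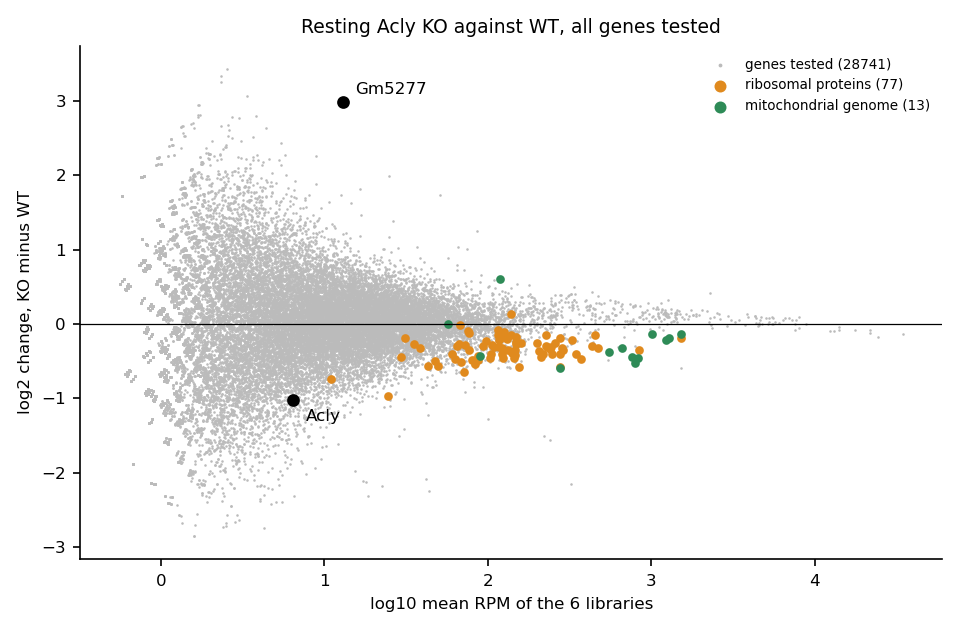
Log2 change of each gene, resting KO minus resting WT, against its log10 mean RPM over the 6 libraries, with each of the 28741 genes tested as a grey point. The spread is wide at low levels, the 77 ribosomal protein genes (orange) and 13 mitochondrial genes (green) lie mostly below 0, Gm5277 is at 2.98 and Acly at -1.02.

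The genes of acetyl-CoA supply gave no call. Of 17 kept, 5 changes were positive and 12 negative, and the median was -0.15 on the log2 scale, beside 0.03 over all genes tested. Pdhx, the subunit that tethers E3 in the pyruvate dehydrogenase complex, had 21.7, 39.5 and 29.1 RPM in KO against 12.8, 8.46 and 26.8 RPM in WT. KO 1 lay below WT 3, so the groups overlapped, and the difference of 1.01 ± 0.39 was not called (adjusted p = 0.996 by limma, as for every other gene named from here on unless a value is given). Pdha1, the catalytic E1 alpha subunit of that complex, had 9.14, 10.7 and 7.57 RPM in KO against 18.6, 16.9 and 8.94 RPM in WT (-0.62 ± 0.46).

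Genes of the other routes into the cytosolic pool, named here for their role after their values were seen, overlapped between the genotypes. Acss2 had 17.2, 12.8 and 15.1 RPM in KO and 19.8, 12.7 and 17.9 RPM in WT, a difference of -0.14 ± 0.42. Slc25a1, the carrier that exports citrate from mitochondria, had 4.57, 2.13 and 2.52 RPM in KO and 8.12, 8.46 and 1.49 RPM in WT, at 1 to 7 counts.

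Cholesterol synthesis and its control showed no called gene among 30 kept, with 9 positive and 21 negative changes and a median of -0.15. Fdft1, squalene synthase, had 2.28, 0 and 1.26 RPM in KO against 4.64, 4.23 and 5.96 RPM in WT, all at or under 4 counts. Its groups did not overlap, yet the KO values lay under the floor and the difference of -2.00 ± 0.87 was not called. Tm7sf2, a sterol reductase late in the pathway, had 34.4, 21.3 and 41.7 RPM in KO against 15.1, 14.1 and 25.4 RPM in WT, with KO 2 below WT 3 (0.82 ± 0.37). Npc2, which carries cholesterol out of lysosomes, had 36.7, 48.1 and 43.0 RPM in KO against 53.6, 85.2 and 40.3 RPM in WT.

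The pathway's entry and control genes, again named for their role after their values were seen, overlapped too. Hmgcs1, which makes HMG-CoA, had 8.0, 20.3 and 16.4 RPM in KO and 13.9, 9.87 and 26.8 RPM in WT, with a difference of -0.15 ± 0.42 and a 95% interval of -0.98 to 0.68. Insig1, which retains the SREBP complex in the endoplasmic reticulum, had 160, 144 and 142 RPM in KO and 223, 143 and 116 RPM in WT. For Insig1 the KO values lay within the range of the WT values, and for Hmgcs1 only KO 1 lay below it.

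**Figure D2:**
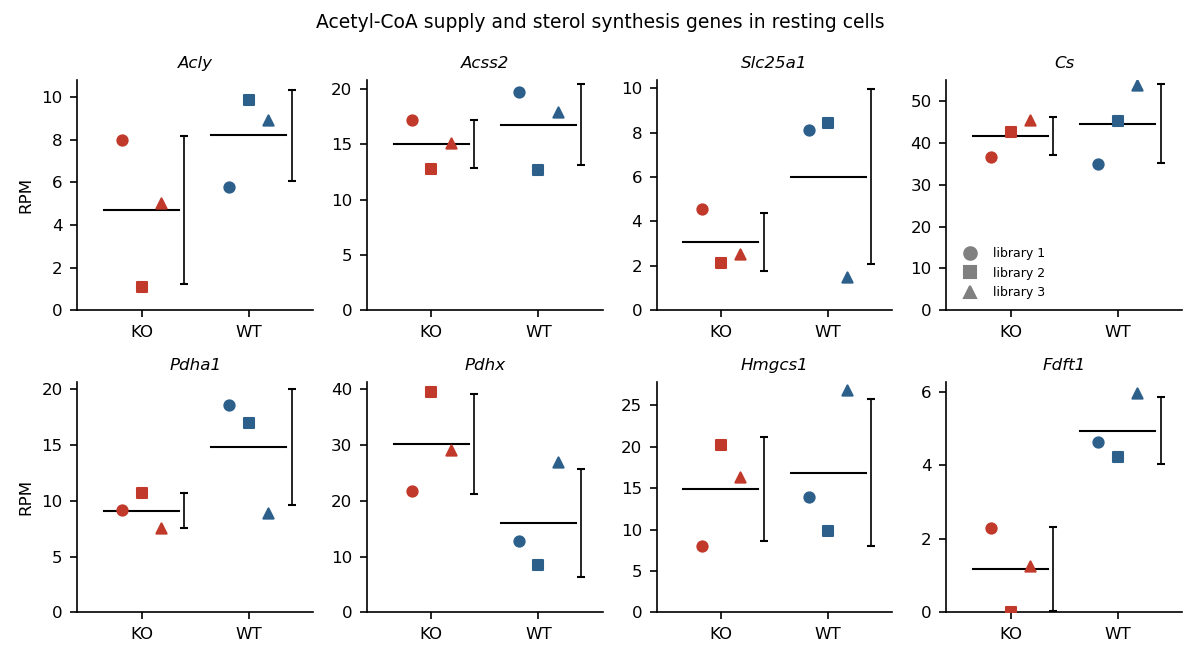
RPM of 8 genes of acetyl-CoA supply and sterol synthesis in each resting library, KO at the left and WT at the right of each panel, with the mean as a line and the SD over 3 libraries as a bar. The groups overlap in each panel other than that of Fdft1, whose KO values of 0 to 2.28 RPM lie under the floor of 3 counts.

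Fatty acid synthesis held 19 genes kept, 6 positive and 13 negative, with a median of -0.20 and none at an unadjusted p under 0.05. Its 3 members by smallest p, Hacd2, Mcat and Acsl3, had at most 5.04 RPM in KO and 10.4 RPM in WT, and their groups overlapped. Of 19 genes of fatty acid oxidation, 14 were negative, with a median of -0.14. Acadl, long-chain acyl-CoA dehydrogenase, had 1.14, 3.19 and 6.30 RPM in KO against 15.1, 7.05 and 7.45 RPM in WT (-1.50 ± 0.60). Acaa2, the mitochondrial thiolase, had 1.14, 0 and 1.26 RPM in KO against 3.48, 2.82 and 5.96 RPM in WT. Both sets did not overlap, and both rest on 5 counts or fewer in each KO library.

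Glycolysis held 20 genes kept, 14 of them negative, with a median of -0.27, and the tricarboxylic acid (TCA) cycle held 19, 12 of them negative, with a median of -0.16. Slc16a1, the lactate carrier MCT1, had 6.86, 4.26 and 7.57 RPM in KO against 0, 1.41 and 4.47 RPM in WT (1.97 ± 0.78), with KO 2 just below WT 3. Pgk1, phosphoglycerate kinase, had 14.9, 5.32 and 20.2 RPM in KO against 16.3, 28.2 and 16.4 RPM in WT. Idh2, the mitochondrial NADP-linked isocitrate dehydrogenase, had 2.28, 2.13 and 2.52 RPM in KO against 8.12, 11.3 and 4.47 RPM in WT. Its groups did not overlap, at 2 counts in each KO library, and the difference was -1.50 ± 0.66. Idh3b, a subunit of the NAD-linked enzyme, had 30.9, 19.2 and 17.7 RPM in KO against 44.3, 46.7 and 22.4 RPM in WT, with KO 1 above WT 3.

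Histone acetyltransferases and deacetylases, the users and removers of acetyl groups on chromatin, had 23 genes kept, 15 positive and 8 negative, with a median of 0.13. Sirt6, a histone deacetylase, had 60.9, 28.8 and 34.1 RPM in KO against 52.5, 76.6 and 58.3 RPM in WT, with KO 1 inside the WT range (-0.65 ± 0.32). Hdac5 had 12.6, 12.8 and 21.5 RPM in KO against 13.9, 12.7 and 5.96 RPM in WT. Neither was called.

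Nearly all ribosomal protein genes had negative changes, although none was called with all 6 libraries and their sum did not separate the genotypes. Of 77 kept, 76 changes were negative, all but that of Rpl3. At an unadjusted p under 0.05 by limma, 6 were lower (7.79%, beside 1.59% of all genes tested) and none higher. The 6 are Rpl17, Rpl23, Rpl36, Rpl37, Rps27 and Rps28. The median was -0.32 on the log2 scale and the changes ran from -0.96 to 0.13. Their summed level was 12442, 11300 and 12175 RPM in KO, against 19489, 18371 and 9073 RPM in WT. The 3 KO libraries lay close together, and the WT libraries differed by over 2-fold, with WT 1 and WT 2 above every KO library and WT 3 below all of them, and an exact two-sided permutation test of the sums gave p = 0.4. In bulk samples fewer cells of a type and less RNA per cell cannot be told apart. Reads of these genes may also be split with their many near-identical pseudogenes.

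Rpl4, Rpl23 and Rps27, whose promoters are printed above, show the order of the libraries. Rpl4, a protein of the large subunit, had 1461, 1296 and 1326 RPM in KO against 2140, 2101 and 831 RPM in WT. Rpl23, another large-subunit protein, had 686, 720 and 741 RPM in KO against 1134, 1204 and 548 RPM in WT. Rps27, of the small subunit, had 265, 307 and 349 RPM in KO against 566, 474 and 286 RPM in WT. In Rpl4 and Rpl23 every KO library lay between WT 3 and the other WT libraries, and in Rps27 KO 2 and KO 3 did, while KO 1 was below WT 3. Rpl36 had 20.6, 12.8 and 16.4 RPM in KO against 41.9, 29.7 and 26.8 RPM in WT (-0.96 ± 0.37). It is among the 3 members (3.9%) with every KO library below every WT library, beside 4.07% of all genes tested.

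Measured against the mean of WT 1 and WT 2, the median ribosomal protein gene stood at -0.58, -0.77 and -0.63 on the log2 scale in KO 1 to KO 3, and at -0.99 in WT 3. In 50 of the 77 (64.9%) every KO library lay above WT 3 and below both other WT libraries, an order found in 650 of all genes tested (2.26%). This order was chosen after the data were seen, and genes are not independent replicates. The 2 shares are not matched for level either, since 39.4% of the genes tested averaged under 3 counts. They describe the list and are no test. With Xist as a covariate the median of the ribosomal genes was -0.16.

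**Figure D3:**
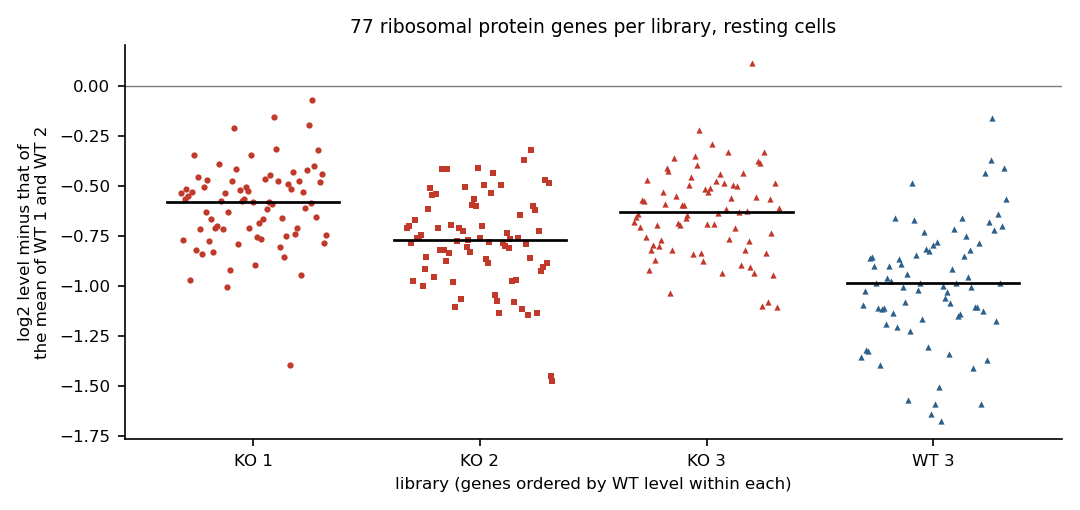
Log2 level of each of the 77 ribosomal protein genes in KO 1, KO 2, KO 3 and WT 3, minus that of the mean of WT 1 and WT 2, with black lines at the medians of -0.58, -0.77, -0.63 and -0.99. Nearly every point lies below 0 in all 4 libraries, the single WT library included.

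The 13 transcripts of the mitochondrial genome showed the same order of sums, at 7008, 8561 and 8916 RPM in KO against 12236, 12374 and 6165 RPM in WT (exact two-sided permutation p = 0.4). Of the 13, 11 changes were negative, with a median of -0.32 (-0.62 without WT 3, with 12 negative). At an unadjusted p under 0.05 by limma, 4 were lower and 1 higher. Genes at that p made up 38.5% of the list, beside 3.22% of all genes tested. mt-Co2, a subunit of cytochrome c oxidase, had 463, 680 and 823 RPM in KO against 1113, 1075 and 641 RPM in WT, a difference of -0.52 ± 0.17. mt-Nd1, a subunit of complex I, had 537, 683 and 868 RPM in KO against 1051, 1226 and 645 RPM in WT. In both, WT 3 lay within the KO values, so the groups overlapped. mt-Nd4l went the other way, with 199, 100 and 138 RPM in KO against 85.4, 114 and 80.9 RPM in WT (0.60 ± 0.27).

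Respiratory chain subunits encoded in the nucleus summed to 1091, 1044 and 1315 RPM in KO against 1445, 1414 and 1137 RPM in WT (exact two-sided permutation p = 0.2). Of 71 kept, 43 changes were negative, with a median of -0.13 (50 negative and -0.34 without WT 3). At an unadjusted p under 0.05 by limma, 6 were lower (8.45%, beside 1.59% of all genes tested) and none higher. Ndufa6, of complex I, had 16.0, 17.1 and 26.5 RPM in KO against 41.9, 48.1 and 19.4 RPM in WT (-0.80 ± 0.36). Ndufb3, also of complex I, had 3.43, 5.32 and 11.4 RPM in KO against 18.6, 15.5 and 7.45 RPM in WT. Atp5g2, a subunit of the ATP synthase ring, had 13.7, 8.52 and 21.5 RPM in KO against 33.7, 22.6 and 19.4 RPM in WT. In all 3, KO 3 lay above WT 3 and the groups overlapped.

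**Figure D4:**
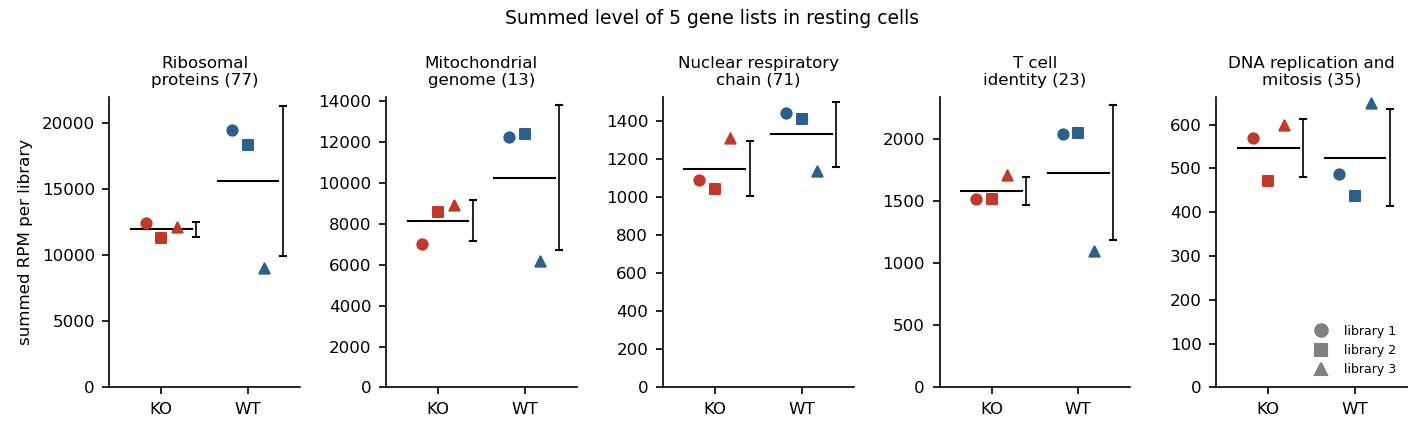
Summed RPM of 5 gene lists in each resting library, KO at the left and WT at the right of each panel, with the mean as a line and the SD over 3 libraries as a bar. For ribosomal proteins and the mitochondrial genome WT 1 and WT 2 lie above every KO library and WT 3 below, while DNA replication and mitosis spans 472 to 599 RPM in KO and 437 to 650 RPM in WT.

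Leaving out WT 3 gave 18 calls, against 1 with all 6 libraries. Without it, 17 genes were lower in KO (0.0591% of those tested) and 1, Gm5277, was higher, with the 2 remaining WT libraries giving the WT spread. Those named here were chosen after their values were seen. Of the 17, 7 encode ribosomal proteins in the list, among them Rpl4, Rpl13a, Rpl17, Rpl23 and Rps27, and 4 are mitochondrial, mt-Co1, mt-Co3, mt-Nd1 and mt-Nd4. Rpl4 was at -0.64 ± 0.12 (adjusted p = 0.0101 by limma), where all 6 libraries gave -0.19 ± 0.30. mt-Co1, with 460, 647 and 588 RPM in KO against 999, 903 and 379 RPM in WT, was at -0.76 ± 0.15 (adjusted p = 0.0111 by limma). The median of the ribosomal list became -0.66 without WT 3, with 0 of 77 positive, against -0.14 without WT 1 and -0.19 without WT 2.

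The others called without WT 3 are also abundant transcripts. Eef1b2, an elongation factor subunit of translation, had 422, 416 and 487 RPM in KO against 804, 753 and 386 RPM in WT, and Tpt1, the translationally controlled tumor protein, had 582, 537 and 603 against 1016, 894 and 386 RPM. B2m, the light chain of MHC class I, had 275, 309 and 261 RPM in KO against 528, 474 and 201 RPM in WT. Fau, which encodes a ribosomal protein fused to a ubiquitin-like one, had 273, 214 and 173 RPM in KO against 365, 406 and 117 RPM in WT. In each of the 4, WT 1 and WT 2 were above all KO libraries and WT 3 was below all of them. Gm10925 and Gm29216, the last 2, are pseudogenes on chromosome 1 whose reads cannot be told apart from mitochondrial ones where the sequences match.

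Genes of T cell identity followed the same libraries. They summed to 1515, 1513 and 1711 RPM in KO against 2039, 2051 and 1099 RPM in WT. In 8 of 23 (34.8%) every KO library lay between WT 3 and the other WT libraries, beside 2.26% of all genes tested. The limits given above for this order hold here too. With all 6 libraries 16 of 23 were negative, with a median of -0.06, and without WT 3 22 of 23 were negative, with a median of -0.34. Cd6, a costimulatory receptor of T cells, had 5.71, 9.58 and 13.9 RPM in KO against 22.1, 22.6 and 11.9 RPM in WT. Cd3g, of the antigen receptor complex, had 33.2, 55.7 and 32.9 RPM in KO against 73.6, 69.5 and 26.8 RPM in WT. KO values lay above WT 3 for both, in at least 1 library.

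Genes of naive cells and quiescence summed to 1285, 1258 and 1557 RPM in KO against 1697, 1468 and 1178 RPM in WT, with 11 positive and 15 negative changes among 26 kept and a median of -0.10. Without WT 3, 21 of the 26 were negative, with a median of -0.28, while the median of all genes tested was 0.13. Btg1, an antiproliferative factor high in resting lymphocytes, had 37.8, 37.4 and 53.2 RPM in KO against 63.0, 56.6 and 70.4 RPM in WT. Its groups did not overlap and its difference was not called. Bach2, a repressor of effector genes, had 58.6, 40.6 and 103 RPM in KO against 51.3, 43.8 and 46.3 RPM in WT. KO 3 was the highest and KO 2 the lowest of the 6 libraries.

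Activation and costimulation genes split 15 positive and 16 negative among 31 kept, with a median of -0.02. Irf4, a transcription factor induced through the antigen receptor, had 6.86, 6.39 and 10.1 RPM in KO against 3.48, 2.82 and 1.49 RPM in WT, at 1 to 8 counts. Its groups did not overlap and the difference of 1.45 ± 0.65 was not called. Lag3, an inhibitory receptor, had 12.6, 10.7 and 8.83 RPM in KO against 3.48, 5.64 and 11.9 RPM in WT. Helper and regulatory lineage genes had 17 positive and 7 negative changes among 24, with a median of 0.12. Ikzf2, the factor Helios of regulatory T cells, had 33.2, 24.5 and 29.1 RPM in KO against 8.12, 28.2 and 23.9 RPM in WT, and Ccr4, a chemokine receptor, had 5.71, 1.06 and 5.04 RPM against 12.8, 4.23 and 13.4 RPM.

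Cytokine genes and their receptors split 11 positive and 13 negative (median -0.02), interferon-induced genes 14 and 15 (-0.04), and genes of survival and death 10 and 11 (-0.01). Il4ra, the interleukin 4 receptor, had 14.9, 14.9 and 13.9 RPM in KO against 9.28, 4.23 and 10.4 RPM in WT, with no overlap and no call. Irf7, a factor of the interferon response, had 2.28, 1.06 and 1.26 RPM in KO against 4.64, 5.64 and 4.47 RPM in WT, at 2 counts or fewer in KO. Bcl2, which holds back cell death, had 73.7, 90.3 and 92.8 RPM in KO against 132, 93.8 and 117 RPM in WT. Its groups did not overlap, and the gap between KO 3 and WT 2 was about 1 RPM.

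Genes of the integrated stress and unfolded protein responses split 12 positive and 20 negative among 32, with a median of -0.06. Xbp1, a factor of the unfolded protein response, had 2.28, 11.7 and 7.57 RPM in KO against 4.64, 4.23 and 0 RPM in WT, and Pdia3, a chaperone of glycoprotein folding, 4.57, 4.26 and 5.04 RPM against 11.6, 11.3 and 7.45 RPM. DNA replication and mitosis genes split 15 and 17 among 32, with a median of -0.02. Cdc45, of the replicative helicase, had 5.71, 6.39 and 15.1 RPM in KO against 0, 2.82 and 8.94 RPM in WT, and KO 1 and KO 2 lay below WT 3.

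Hemoglobin transcripts were high in KO 3 alone. Hba-a1 had 17.2, 33.1 and 479 RPM in KO against 44.3, 41.0 and 44.8 RPM in WT, and Hbb-bs had 12.6, 7.45 and 198 RPM against 17.4, 15.5 and 23.9 RPM. The 14 erythroid and platelet markers (10 kept) summed to 76.6, 86.4 and 1221 RPM in KO and 114, 94.6 and 128 RPM in WT (exact two-sided permutation p = 1.0). The erythroid enzyme Alas2 was at 1 count or none in every library. All 10 kept had positive changes, with a median of 0.56, and without KO 3 the split was 5 and 5 and the median 0.11. Leaving out KO 1 gave 2 genes called higher (0.00696% of those tested) and 7 called lower (0.0244%). Hbb-bt was 1 of the 2, at 2.99 (adjusted p = 0.00361 by limma), with 3.43, 7.45 and 125 RPM in KO against 1.16, 7.05 and 4.47 RPM in WT. The labels name a globin-depleting kit, and the part of uneven depletion in these levels was not tested. The part of KO 3's hemoglobin in other results was not tested beyond leaving that library out.

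**Figure D5:**
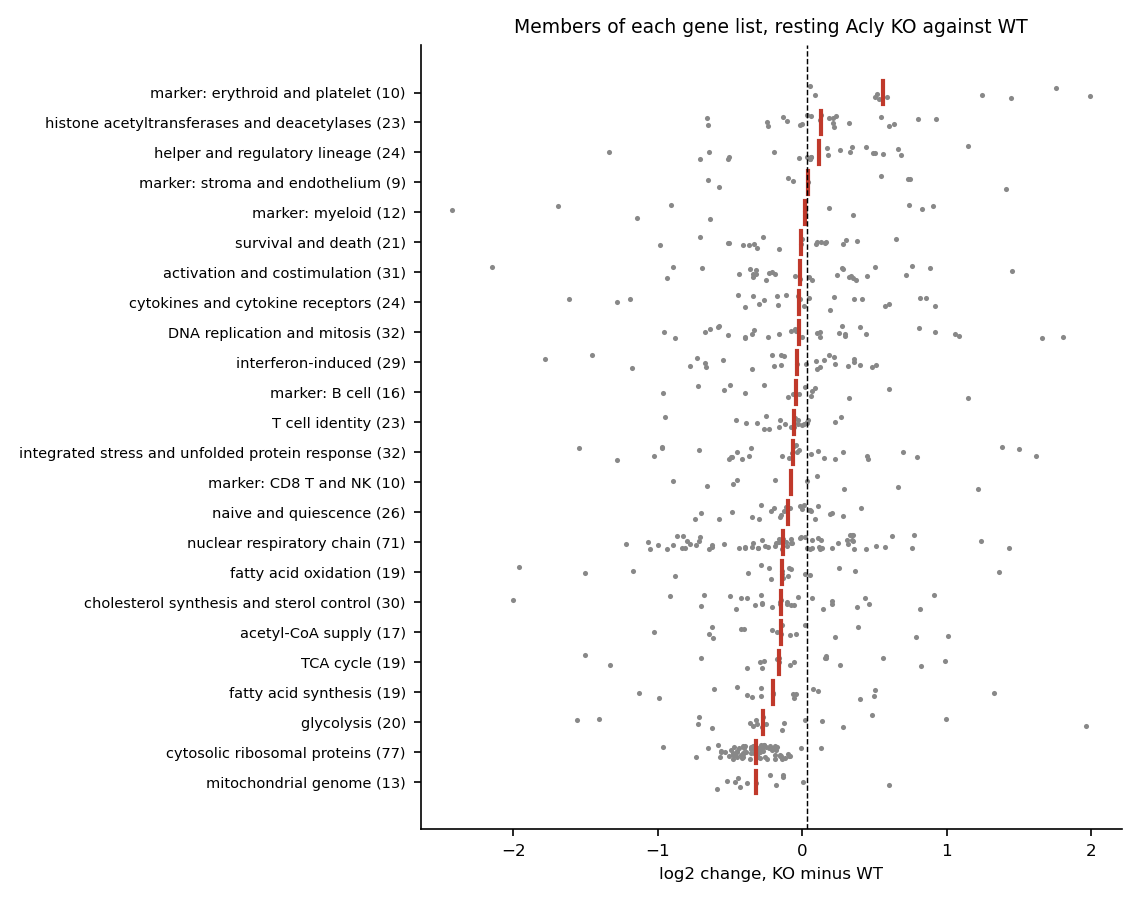
Log2 change, KO minus WT, of each member of 24 gene lists (grey points), with the list's median as a coloured bar, the number of genes kept in brackets and the median of all genes tested, 0.03, as a dashed line. Ribosomal proteins and the mitochondrial genome have the lowest medians, both -0.32, and erythroid and platelet markers the highest, 0.56.

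Among all genes, 12 in each direction were taken by smallest p among those with no overlap whose higher mean reached 10 RPM, and so had to differ. Higher in KO were Psg19, Prpf6, Ppp2r3c, Atp8b4, Ppp1r26, S100b, Tcf7l2, Plekha2, Dctn2, Ammecr1, Macc1 and Lrrc32. Psg19, a pregnancy-specific glycoprotein, had 17.2, 12.8 and 18.9 RPM in KO against 3.48, 4.23 and 7.45 RPM in WT (1.64 ± 0.50). Tcf7l2, a transcription factor of the Wnt pathway, had 30.9, 26.7 and 34.1 RPM in KO against 16.3, 16.9 and 11.9 RPM in WT (1.01 ± 0.38). Plekha2, an adaptor that binds phosphoinositides, had 116, 63.2 and 69.8 RPM in KO against 43.1, 39.6 and 56.8 RPM in WT (0.79 ± 0.30). Lrrc32, which anchors latent TGF-beta on regulatory T cells, had 12.6, 10.7 and 8.83 RPM in KO against 3.48, 4.23 and 4.47 RPM in WT. None of the 12 was called.

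Lower in KO by the same rule were Cdkn2aip, Mrps21, Zfp967, Prdm16, Cnr1, Rpl36, Pla2g12a, Trp53bp1, Uvssa, Zc3h7b, Psmd13 and Kazald1. Cdkn2aip, a regulator of the p53 pathway, had 0, 4.26 and 3.78 RPM in KO against 9.28, 11.3 and 10.4 RPM in WT (-2.32 ± 0.65), and without KO 1, the library at 0, the difference was -1.26. Mrps21, a protein of the mitochondrial ribosome, had 4.57, 8.52 and 0 RPM in KO against 11.6, 12.7 and 8.94 RPM in WT. Uvssa, of transcription-coupled DNA repair, had 34.4, 27.7 and 39.2 RPM in KO against 40.8, 86.6 and 59.8 RPM in WT. Psmd13, of the proteasome lid, had 12.6, 10.7 and 7.57 RPM in KO against 23.2, 31.1 and 13.4 RPM in WT. These 12 were not called either. For all 96 genes named by rule, the interaction of genotype and activation had an adjusted p of at least 0.9999 by limma, so no difference between the genotype effect at rest and after activation was called.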

How the data were processed

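RNA was read from resting mouse CD4 T cells of 3 Acly KO and 3 WT libraries with a ribosomal- and globin-depleting stranded total RNA kit, single end, 75 bp, per the labels. The authors deposited a table of 46981 genes in RPM that sums to 1000000 per library. Builds GRCm38 and mm10 come from the submitters' processing notes. No aligner, counter or annotation is named in the sources used here. All values over 0 gave whole counts (tolerance 0.01) after the scaling and a collision correction over 4096 identifiers of 6 bases were undone, which caps a gene at 4095 counts. The labels name no such identifiers, so which stretch of a transcript the reads cover is unknown. No column was without a sample.

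Symbols and biotypes are those of GENCODE M21, which matched 46206 IDs, and 68 repeated symbols were kept apart. The test was limma 3.58.1 (R 4.3.3, trend and robust) on log2(RPM + 0.5), 6 libraries, with Benjamini-Hochberg adjustment over all 28741 genes and 0.05 as the threshold. The scale understates folds of low genes. edgeR 4.0.16 and DESeq2 1.42.0 ran on the recovered counts, corrected for collisions and rounded. Sums were compared by exact two-sided permutation tests. Named genes were Acly, every called gene, 12 per direction by smallest p (at least 10 RPM in the higher group, the same direction in 9 of 9 library pairs, no predicted models, pseudogenes or receptor genes) and 3 per list by smallest p (at least 3 RPM). Lists were described by counts and medians only, and a few of their members are not reported here. Members and the 24 lists (661 symbols, 601 kept) were chosen with earlier results of these data known. The fits were checked on simulated data. Alternatives were other pseudocounts, filters, scalings, samples, variance models, an Xist covariate, the replicate number as a block and each library left out. List counts without each library and the order of KO between WT libraries were added after seeing the data.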

Additional observations from a re-analysis of the deposited data

How the results depend on the processing

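The count of 1 called gene, the higher one, fell to 0 under a filter of 5 RPM, TMM-style scaling, quantile normalization, a fit of all 12 Acly libraries, limma without trend and robust, an Xist covariate, edgeR and DESeq2. It was 1 with pseudocounts of 0.1 or 1, with no filter and with scaling outside receptor genes. Leaving out 1 library gave 0 to 18 calls, 0 to 2 of them higher and 0 to 17 lower: 9 without KO 1, 0 without KO 2 or KO 3, 4 without WT 1, 1 without WT 2 and 18 without WT 3. Without KO 1, 6 of the 9 genes, Ddx3y included, lie on the Y chromosome. The replicate number as a block left 0 calls, with a smallest adjusted p of 0.159 by limma. Libraries of the same number correlated in their deviations at 0.056, 0.110 and 0.129, and each correlated best with its own number, a hint from the data and not from the design.

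Of 456 list medians under the alternatives, 10 moved beyond the spread between replicates. With the Xist covariate, survival and death was at -0.16 and myeloid markers at -0.24. Erythroid and platelet markers were at 1.63 with edgeR and 1.66 with DESeq2. With 1 library left out, the helper and regulatory list ran from -0.092 to 0.31, survival and death from -0.20 to 0.054 and myeloid markers from -0.27 to -0.011. Of 1804 values of named genes, 5 changed sign when 1 library was left out. Kat2a ran from -0.36 (without WT 1) to 1.72, Mcm4 from -0.025 (without WT 2) to 1.82, Bank1 from -0.77 to 0.035 (without WT 3), Cst3 from -0.36 (without WT 3) to 1.32 and Hba-a2 from -0.12 (without KO 3) to 1.97. Another 5 became calls, mt-Nd1, mt-Co3, Rpl17 and Rps27 without WT 3 and Hbb-bt without KO 1. The cause was not tested. Depth limits genes under about 3 counts in both groups, where differences that stay under the floor of 3.19 to 4.47 RPM cannot be read.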

Other observations

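Genes on the Y chromosome divided the libraries across genotype. Gm37222 had 199, 14.9 and 17.7 RPM in KO against 178, 163 and 26.8 RPM in WT, and Gm37032 had 139, 13.9 and 22.7 RPM in KO against 113, 127 and 20.9 RPM in WT. Gm28356 had 95.8, 1.06 and 1.26 RPM in KO against 80.7, 70.9 and 2.98 RPM in WT. KO 1, WT 1 and WT 2 were high in all 3 genes, which were named after their values were seen, and KO 2, KO 3 and WT 3 were low.

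Prcc, whose product binds the splicing machinery, had 8.0, 2.13 and 2.52 RPM in KO against 4.64, 73.7 and 20.9 RPM in WT, and Ppp2r3a, a regulatory subunit of protein phosphatase 2A, had 127, 71.9 and 96.7 RPM in KO against 114, 775 and 258 RPM in WT. Both were high in WT 2, lower in WT 3 and within the KO range in WT 1, and, of the alternatives run, both were called lower in KO without WT 1 (Prcc also without KO 1).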
